A study of Caenorhabditis elegans with 12 samples.

Results

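Gamma-linolenic acid (GLA) was given to wild-type Caenorhabditis elegans of strain N2 from hatched L1 larvae up to the L4 stage, and their RNA was set against that of larvae raised on the vehicle alone. The comparison holds the 3 arrays of GLA-fed larvae and the 3 of vehicle controls, 6 of the 12 arrays in the series, over all probe sets. About 2000 synchronised larvae went onto a plate and fed on Escherichia coli OP50 at 20 °C on agar medium (NGM), so each array pools many whole animals. GLA was added to the medium at 1000 µM from a stock in ethanol, and control plates received the same quantity of ethanol, 1% by volume. The labels describe triplicate assays and name no separate cultures, so p-values measure the spread between these samples, which may in part be technical. The remaining 6 arrays are of larvae given 1000 µM of linoleic acid (LNA) or dihomo-gamma-linolenic acid (DGLA), 3 arrays each. In whole animals a gene's signal falls alike when the cells that express it are fewer and when each holds less of its RNA, and these cannot be told apart.

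GLA is a polyunsaturated fatty acid that worms also make for themselves. The desaturase fat-3 turns LNA into GLA by adding a double bond, the elongase elo-1 lengthens GLA by a carbon pair into DGLA, and fat-4 desaturates DGLA in turn. Fatty acids taken up with food are bound by carrier proteins, activated as coenzyme A (CoA) esters, built into membrane and storage lipid, or shortened by beta-oxidation in mitochondria and peroxisomes. Most of this takes place in the intestine, which in worms is also the main organ of fat storage, detoxification and defence against ingested microbes.

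Values are log2 signals that the authors normalised between arrays, so a difference of 1 is a 2-fold change, and levels are compared only within a gene. The 29317 probe sets held 25546 with exactly 1 gene symbol, which stand for 25478 genes. Called genes are those with an adjusted p (Benjamini-Hochberg) under 0.05 in limma's moderated test, fitted on all 12 arrays with adjustment over all probe sets, and every adjusted p below comes from that test unless another fit is named. GLA arrays correlated with each other at 0.9936 to 0.9944 across probe sets, control arrays at 0.9916 to 0.9937, and GLA with control arrays at 0.9917 to 0.9935. Control 3 stood farthest out among the 6 arrays, at 31.6 on a first principal component that held 25.5% of their variance, where the other 5 lay between -20.1 and 5.2. On this component each group ran in the order of its replicate numbers (-20.1, -1.1 and 31.6 in controls, -15.3, -0.3 and 5.2 with GLA). The second component, with 24.3%, put the control arrays at 10.4 to 19.4 and the GLA arrays at -20.2 to -11.8. Arrays LNA 2 and LNA 3, which share in the estimate of the spread, lay apart from the other 10 on the first component of all 12.

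GLA changed 63 genes, which is 0.247% of the 25478 tested, with 42 higher (0.165%) and 21 lower (0.0824%). Counted as probe sets, 67 of 29317 passed (0.229%). Of the 63 genes, 20 rose and 10 fell at least 2-fold. All 63 code for proteins, as do 18799 of the genes tested. The 3 GLA values lay wholly on one side of the 3 control values in each of the 63 genes, and in 12% of all genes (5.7% higher, 6.35% lower). The median log2 fold change over all genes was -0.0024, and 95% of genes lay between -0.32 and 0.34, with a median standard error (SE) of 0.133.

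**Figure D1:**
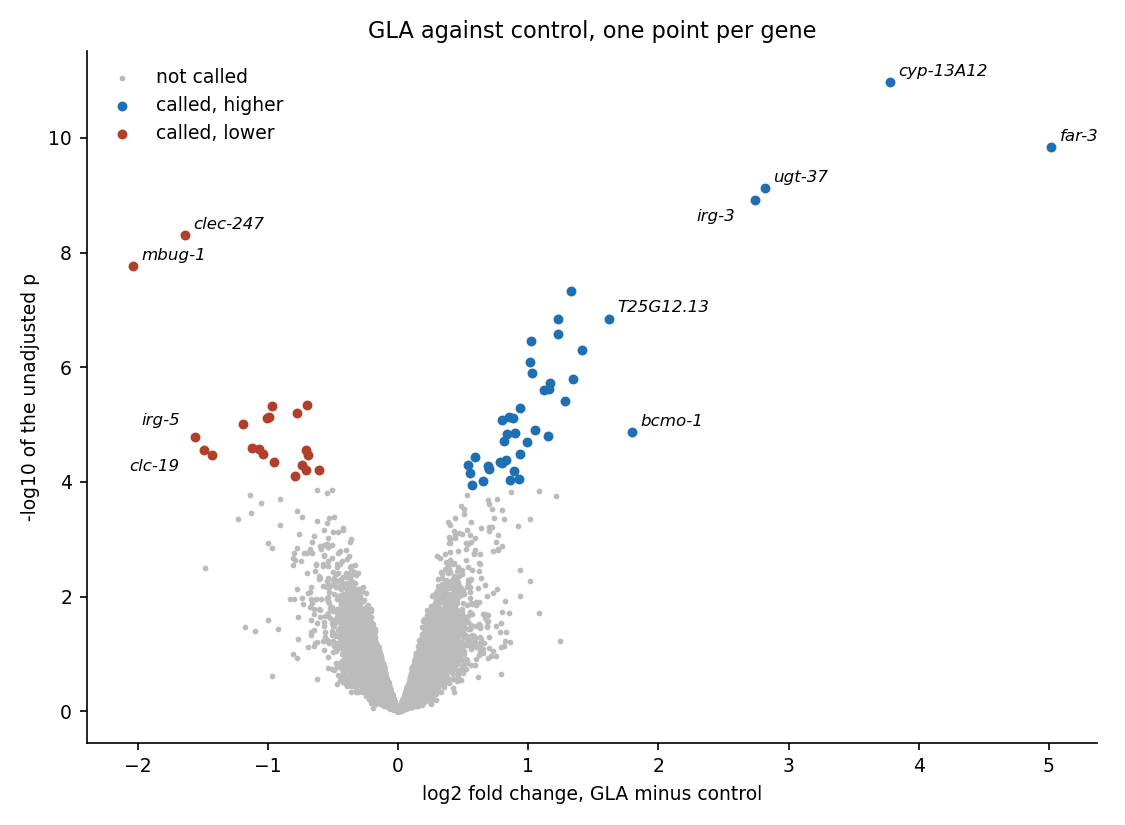
Volcano plot of GLA against control. The horizontal axis is the log2 fold change and the vertical axis the -log10 of the unadjusted p, with 1 point per gene for 25478 genes. Blue points are the 42 genes called higher, red points the 21 called lower and grey points the rest; far-3 and cyp-13A12 lie farthest out.

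With 3 arrays a group, many calls rested on every array. When each of the 6 arrays was left out in turn, 21 of the 63 genes stayed called every time. They were acds-10, acox-1.1, acs-7, B0272.4, bcmo-2, cest-12, cyp-13A12, cyp-13B1, decr-1.1, dhrs-4, far-3, fat-5, irg-3, T25G12.13, ugt-35, ugt-37 and Y87G2A.2 among the rises, and cpt-4, sysm-1, clec-247 and mbug-1 among the falls. Fitted on the 6 arrays alone, 25 of the 63 stayed called. These were the 21 without cyp-13B1, fat-5, cpt-4 and sysm-1, and with cTel55X.1, C40H1.8, acox-3, maoc-1, dhs-19, K09C6.9, cyp-35A3 and irg-5. Without LNA 2 and LNA 3, 50 stayed called, and the calls of ech-8, C06C6.8, cyp-25A3, Y53G8B.2, F55F3.4, nhr-257, Y75B8A.28, lys-7, cyp-35A5, F10C2.7, asp-12, clec-71 and cyp-35A3 ended (adjusted p 0.0531 to 0.0773).

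The largest change was in a lipid carrier. The gene far-3 (F15B9.1) encodes a member of the fatty acid and retinol binding (FAR) proteins, a nematode family of small lipid carriers. It read 4.35, 4.20 and 4.05 on the control arrays and 9.40, 9.13 and 9.14 on the GLA arrays. Its lowest GLA value lay more than 4 log2 units above its highest control value, and the rise was 32.5-fold (log2 fold change 5.02, SE 0.24, adjusted p = 2.11e-06). None of its relatives was called. The 8 FAR genes measured had a median of -0.02, from -0.41 in far-5 to far-3, with far-8 nearest to a call among the others (-0.23, adjusted p = 0.916). Of 9 intracellular lipid binding proteins (lbp), which carry fatty acids inside cells, none was called (median 0.06), and lbp-7 (0.26) and lbp-1 (0.35) had the smallest p.

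Peroxisomal beta-oxidation shortens long and branched acyl chains and in worms also trims the side chains of ascaroside pheromones. At each of its steps at least 1 gene was called higher. Of 13 genes measured 6 rose and none fell, with a median of 0.31, while 0.165% of all genes were called higher. The list was written with earlier results of these data known. For the acyl-CoA oxidase acox-1.1 (F08A8.1), which opens the cycle, control arrays read 7.75, 7.79 and 7.85 and GLA arrays 8.95, 8.85 and 8.64, with no overlap and a 2.03-fold rise (adjusted p = 0.00094). Its relative acox-3 rose 1.80-fold, from 6.73 ± 0.111 to 7.58 ± 0.0403 (mean ± SD, n = 3, adjusted p = 0.00831). The enoyl-CoA hydratase maoc-1, which acts next, rose 1.78-fold (7.01 ± 0.0857 to 7.84 ± 0.0889, adjusted p = 0.0254). The hydroxyacyl-CoA dehydrogenase dhs-28 of the following step rose 1.51-fold (9.88 ± 0.0367 to 10.47 ± 0.0732, adjusted p = 0.023). The thiolase daf-22, which ends the cycle, rose 1.92-fold (8.09 ± 0.184 to 9.04 ± 0.0906, adjusted p = 0.00692). The hydratase family gene ech-8 rose 1.91-fold (6.10 ± 0.228 to 7.03 ± 0.178, adjusted p = 0.0401). Not all acyl-CoA oxidases were called, since acox-1.2 (0.16), acox-1.3 (0.19), acox-1.4 (0.10), acox-1.5 (-0.23) and acox-1.6 (0.26) were not. Without GLA 2 daf-22 was not called (adjusted p = 0.0542), and the call of acox-3 ended without control 1, GLA 1 or GLA 2 (0.0518 to 0.0562). Calls of maoc-1 (0.0718 to 0.139), dhs-28 (0.0724 to 0.139) and ech-8 (0.0653 to 0.22) ended without any 1 of the 6 arrays.

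The organelle itself gave no call. Of 11 peroxins (prx), which import proteins into peroxisomes or build their membrane, 10 had fold changes above 0, with a median of 0.20 and a highest value of 0.47 in prx-12 (adjusted p = 0.596). Among the 4 peroxisomal membrane transporters measured, pmp-2 came nearest to a call (0.52, adjusted p = 0.279).

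In the mitochondrial and other beta-oxidation list 2 of 31 genes rose and 1 fell (median 0.05). The acyl-CoA dehydrogenase acds-10 (K09H11.1) read 7.23, 7.38 and 7.33 in controls and 8.69, 8.69 and 8.53 with GLA, a 2.51-fold rise (adjusted p = 0.000194). The dienoyl-CoA reductase decr-1.1 (F53C11.3), of a kind needed to break down chains with double bonds, read 7.89, 7.91 and 7.82 in controls and 9.17, 9.07 and 9.06 with GLA, a 2.35-fold rise (adjusted p = 0.000466). In both genes the arrays within a group differed by less than 0.2, and the groups lay more than 1 log2 unit apart. The hydroxyacyl-CoA dehydrogenase hacd-1 (R09B5.6) went the other way, from 6.87, 7.12 and 7.20 to 5.81, 6.16 and 5.64, and was 2.29-fold lower (adjusted p = 0.00986). Its call ended without control 2, GLA 1 or GLA 3 (0.0556 to 0.0611). Close relatives were not called, such as decr-1.2 (0.17), decr-1.3 (-0.13) and the dehydrogenase acdh-2 (0.55, adjusted p = 0.202).

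Carnitine palmitoyltransferases, which pass long acyl chains into mitochondria, split in direction. Of 6 genes measured 1 rose and 1 fell (median 0.37). For cpt-5 (F09F3.9) the control arrays read 6.00, 6.41 and 6.29 and the GLA arrays 7.46, 7.48 and 7.21, a 2.22-fold rise (adjusted p = 0.0134). By contrast cpt-4 was 1.62-fold lower, from 7.69 ± 0.00566 to 7.0 ± 0.119 (adjusted p = 0.0065). The call of cpt-5 ended without control 1, GLA 1 or GLA 2 (0.0692 to 0.0862), while cpt-4 stayed called whichever array was left out. With cpt-6 the difference was 0.87 (adjusted p = 0.0592), and with cpt-1 and cpt-2 it was 0.06 and 0.31. Of 23 acyl-CoA synthetases, which prime fatty acids for use, 1 rose. This was acs-7 (C01G6.7), from 6.45, 6.73 and 6.58 to 7.45, 7.67 and 7.67, a 2.01-fold rise with no overlap (adjusted p = 0.00179).

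The enzymes that make polyunsaturated fatty acids did not respond at a level the test could call. The fold changes of fat-1 (0.14), fat-2 (0.00), fat-3 (0.19), fat-4 (0.05), elo-1 (0.19) and elo-2 (-0.23) had 95% intervals that stayed between -0.44 and 0.44. Those of elo-1 (0.01 to 0.38) and elo-2 (-0.44 to -0.02) left out 0, though neither gene was called. Among the desaturases that place the first double bond into saturated chains, fat-5 (W06D12.3), which acts on palmitoyl-CoA, rose. Its control arrays read 4.14, 4.22 and 4.64 and its GLA arrays 5.52, 5.6 and 5.36, a 2.24-fold rise (adjusted p = 0.00401). Neither stearoyl-CoA desaturase was called, with fat-6 at -0.01 (interval -0.21 to 0.19) and fat-7 at 0.56 (interval 0.21 to 0.91, adjusted p = 0.536). No gene was called among 7 other elongases (median -0.05), 11 genes of fatty acid synthesis (0.10), 12 of lipid droplets and storage (0.00), 17 of phosphatidylcholine and S-adenosylmethionine synthesis (-0.01), 8 acyl-CoA binding proteins (0.01) or 8 lysosomal lipases (0.14).

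**Figure D2:**
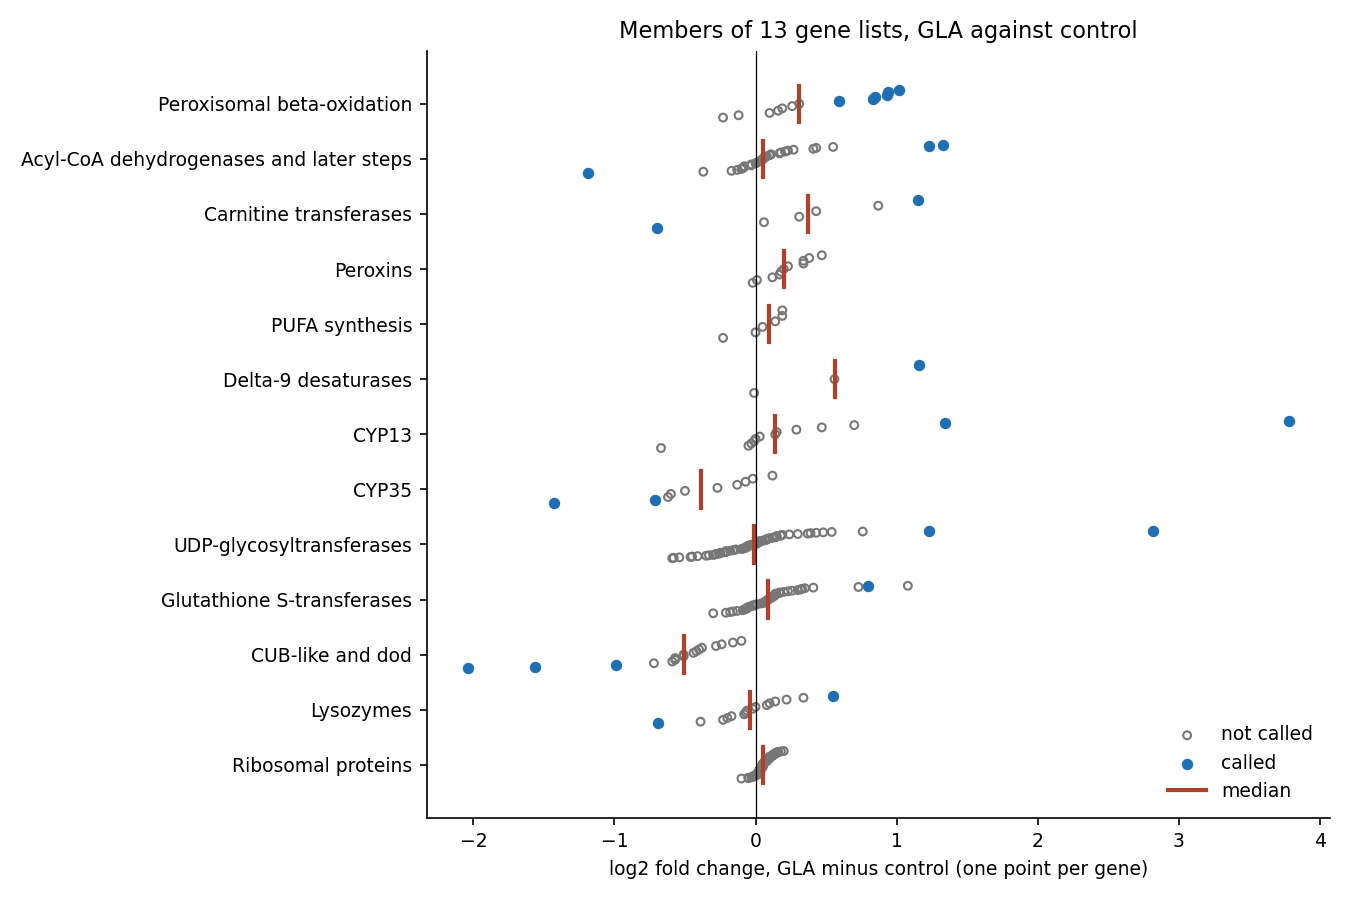
Log2 fold change of GLA against control for the members of 13 gene lists, 1 point per gene, with called genes filled and the list median as a red bar. The 6 called genes of peroxisomal beta-oxidation lie to the right of 0, and all 17 CUB-like and dod genes to the left.

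Regulators of fat metabolism were not called. The 18 measured had a median of 0.06, with nhr-10 at -0.34 (adjusted p = 0.623) and nhr-114 at 0.44 (adjusted p = 0.768) nearest. Among 276 nuclear receptors of all kinds, 1 gene, nhr-257, passed (0.65, adjusted p = 0.0423). Its mean of 1.81 in controls and 2.46 with GLA both lay below 2.9, the lowest lower quartile of any array, so no fold is given for it. Its call ended without control 1, control 2 or any 1 GLA array (0.098 to 0.243).

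The CYP13 family gave calls upward and the CYP35 family calls downward. Cytochrome P450 enzymes (CYP) add oxygen to fats and foreign compounds, and cyp-13A12 (F14F7.3) is known in worms for oxidising polyunsaturated fatty acids in the behavioural response to the return of oxygen. It read 3.90, 4.13 and 4.23 in controls and 7.96, 7.82 and 7.81 with GLA, a 13.7-fold rise (SE 0.144 on the log2 scale, adjusted p = 3.15e-07), the smallest p of all genes. Its relative cyp-13B1 (F02C12.5) read 4.73, 4.20 and 4.35 in controls and 5.95, 5.66 and 5.70 with GLA, a 2.54-fold rise (adjusted p = 0.00307). The other 11 of the 13 CYP13 genes measured were not called, among them cyp-13A2 (0.70, adjusted p = 0.166), cyp-13A10 (0.47) and cyp-13A5 (-0.67, adjusted p = 0.861). The family median was 0.14.

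CYP35 enzymes are induced by many foreign compounds in worms and have been tied to fat storage. Of 10 genes 2 fell, none rose, and 9 had fold changes below 0 (median -0.38). For cyp-35A3 (K09D9.2) the control arrays read 5.65, 5.78 and 5.58 and the GLA arrays 4.50, 4.20 and 4.03, which was 2.69-fold lower (adjusted p = 0.0215). With cyp-35A5 the fall was 1.64-fold, from 6.59 ± 0.217 to 5.88 ± 0.0983 (adjusted p = 0.0302). Neither call was firm, for that of cyp-35A3 ended without any 1 of the 6 arrays (0.0502 to 0.116) and that of cyp-35A5 without any but control 1 (0.113 to 0.164). Next came cyp-35A2 (-0.62, adjusted p = 0.144), cyp-35C1 (-0.50, adjusted p = 0.188) and cyp-35A4 (-0.60, adjusted p = 0.809). Relatives within these families are alike in sequence, and how far their probes take up each other's RNA was not tested.

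In the 51 remaining P450 genes, 2 rose and both lie near each other with 1 gene between them. They were cyp-25A1 (1.79-fold, 4.99 ± 0.143 to 5.83 ± 0.183, adjusted p = 0.0126) and cyp-25A3 (1.74-fold, 5.99 ± 0.253 to 6.79 ± 0.0668, adjusted p = 0.0254). Their relative cyp-25A2 stood at 0.75 (adjusted p = 0.246). The call of cyp-25A1 ended without control 1, control 2, GLA 1 or GLA 2 (0.0724 to 0.0814), and that of cyp-25A3 without control 1, control 2 or any 1 GLA array (0.0993 to 0.145).

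UDP-glycosyltransferases attach sugars to fat-soluble compounds, which eases their removal. Of 67 measured, 2 were called, and 1 of them had the third largest rise of all. That gene, ugt-37 (F10D2.6), read 5.54, 5.52 and 5.13 in controls and 8.20, 8.25 and 8.22 with GLA. The GLA arrays agreed to within 0.06, and the rise was 7.07-fold (SE 0.156 on the log2 scale, adjusted p = 7.33e-06). The other, ugt-35 (C32C4.7), read 2.95, 3.21 and 3.01 in controls and 4.27, 4.17 and 4.41 with GLA, a 2.34-fold rise (adjusted p = 0.000776). Its control mean of 3.06 lay close to 2.9, the lowest lower quartile of any array, so its fold is less certain. Neither gene lost its call with any array left out. The family median was -0.01, and ugt-33 came nearest to a call among the rest (0.76, adjusted p = 0.074).

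Both beta-carotene oxygenase genes rose. Enzymes of this kind split carotenoids, the source of retinoids in animals. For bcmo-2 (F53C3.12) the control arrays read 6.35, 6.54 and 6.26 and the GLA arrays 7.38, 7.46 and 7.40, a 2.04-fold rise (adjusted p = 0.00262). For bcmo-1 (Y46G5A.24) the controls read 3.28, 2.76 and 3.85 and the GLA arrays 4.88, 5.45 and 4.97, a 3.48-fold rise (adjusted p = 0.0124). Its controls spread over more than 1 log2 unit, with control 2 under every array's lower quartile, and its call ended without control 1, GLA 2 or GLA 3 (0.0516 to 0.0739).

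Among short-chain dehydrogenases, which oxidise or reduce alcohols and ketones of many kinds, 3 of 34 rose and none fell (median 0.08). The dehydrogenase/reductase dhrs-4 (F54F3.4) read 5.73, 5.73 and 5.62 in controls and 7.15, 7.05 and 6.72 with GLA, a 2.43-fold rise (adjusted p = 0.00593). With dhs-18 the rise was 1.99-fold (8.21 ± 0.21 to 9.20 ± 0.0771, adjusted p = 0.0157) and with dhs-19 1.76-fold (5.67 ± 0.0711 to 6.48 ± 0.0526, adjusted p = 0.0152). The call of dhs-18 ended without any array but control 3 (0.0623 to 0.098) and that of dhs-19 without any 1 of the 6 (0.0526 to 0.0978). Of 35 carboxylesterases, which split ester bonds, cest-12 (Y75B8A.3) alone rose, from 4.74, 4.54 and 4.78 to 5.77, 5.83 and 5.82 (2.18-fold, adjusted p = 0.00401).

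Glutathione S-transferases, which couple glutathione to reactive compounds, gave 1 call in 46 genes (median 0.09). This was gst-44, 1.74-fold higher (3.88 ± 0.059 to 4.68 ± 0.157, adjusted p = 0.00855), whose call ended without control 1, control 2, GLA 2 or GLA 3 (0.0505 to 0.0666). A larger difference in gst-33 was not called (1.08, SE 0.195, adjusted p = 0.0592). Of 5 genes of the cadmium responsive cdr family, cdr-4 rose 1.46-fold (6.46 ± 0.0257 to 7.0 ± 0.0769, adjusted p = 0.027), a call that ended without any 1 array (0.0755 to 0.162). None of 30 ABC efflux transporters was called, pgp-1 being nearest (0.80, adjusted p = 0.104).

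**Figure D3:**
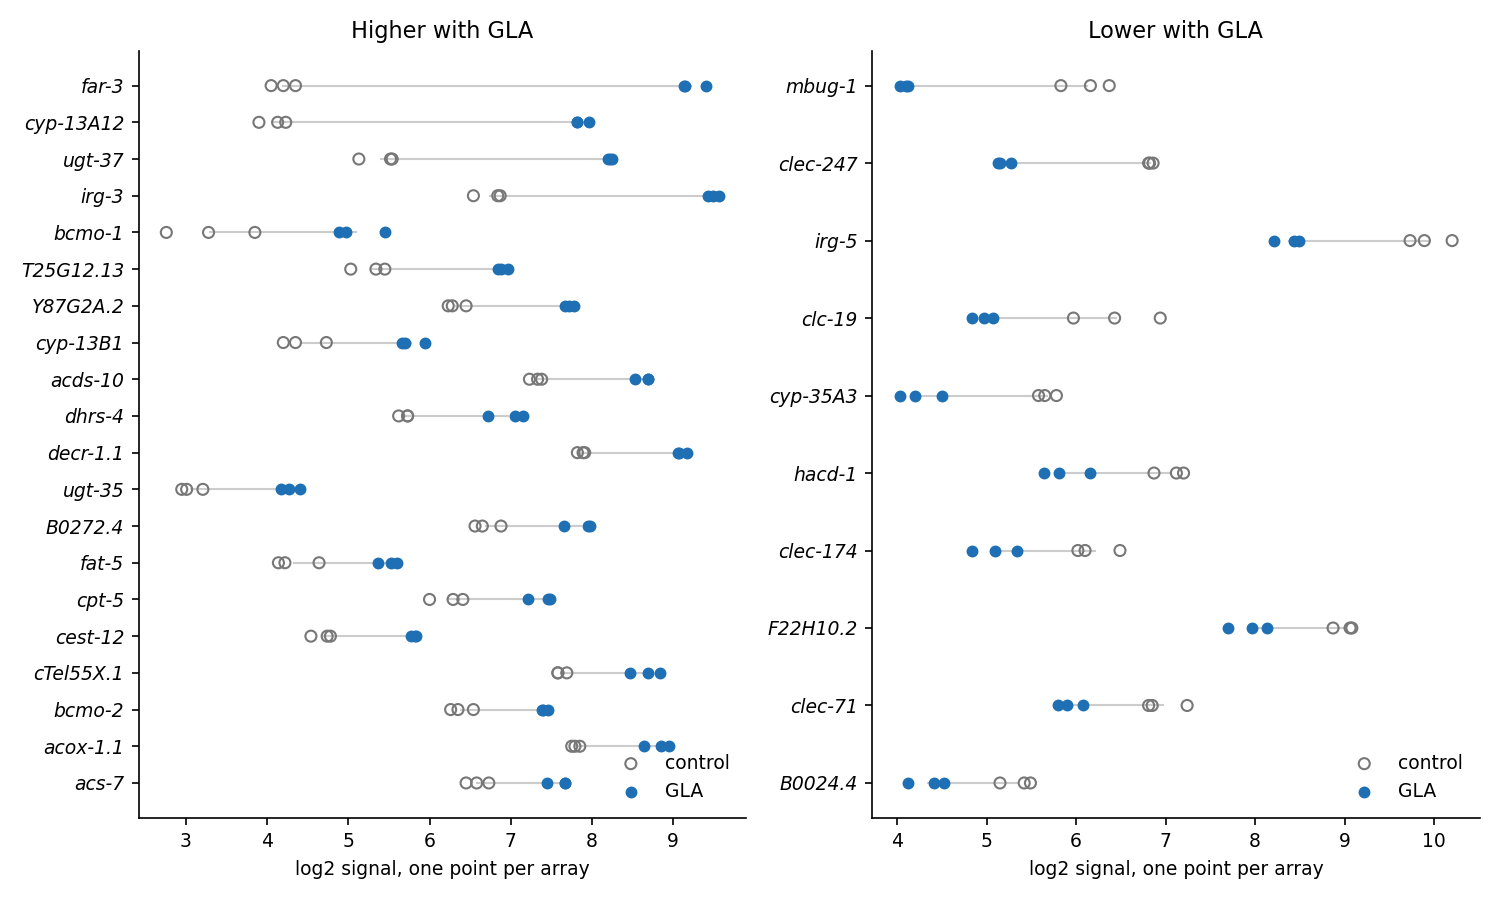
Log2 signal of the 30 called genes that changed at least 2-fold, with 1 point per array. Open grey circles are the 3 control arrays, blue points the 3 GLA arrays, and the line joins the group means; in none of the 30 do the groups overlap.

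Among defence genes there was 1 large rise, in irg-3 (F53E10.4), which is named for its response to infection. It read 6.84, 6.87 and 6.54 in controls and 9.56, 9.43 and 9.49 with GLA, a 6.70-fold rise (SE 0.158 on the log2 scale, adjusted p = 8.76e-06). Of the 8 genes named irg, it was the only rise, and irg-4 and irg-5 fell. Both of these encode proteins with a CUB-like domain, of a kind that worms switch on against ingested bacteria. The gene irg-5 (F35E12.5) went from 9.73, 10.20 and 9.89 to 8.49, 8.43 and 8.21, which was 2.95-fold lower (adjusted p = 0.0136). With irg-4 the fall was 1.98-fold, from 8.31 ± 0.0505 to 7.32 ± 0.239 (adjusted p = 0.00831). The call of irg-5 ended without control 2 or any 1 GLA array (0.0577 to 0.0808) and that of irg-4 without GLA 2 (0.0556).

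The deepest fall of all was in mbug-1 (F55G11.4), another CUB-like gene. Its controls read 5.83, 6.16 and 6.37 and its GLA arrays 4.10, 4.03 and 4.12, so that it was 4.10-fold lower (SE 0.149 on the log2 scale, adjusted p = 8.32e-05). In the list of CUB-like and dod genes (downstream of the insulin pathway factor daf-16), 17 of 23 names were matched. All 17 had fold changes below 0, with a median of -0.51, but 3 were called, namely mbug-1, irg-5 and irg-4. Members were lower on every GLA array than on any control array in 12 of the 17, against 6.35% of all genes. This list was written with earlier results on several of its members known. Those not called ran from -0.72 in F55G11.2 (adjusted p = 0.299) to -0.10 in dod-23. Nearest to a call were C17H12.8 (-0.51, adjusted p = 0.0569) and dod-22 (-0.57, adjusted p = 0.18).

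Of 247 C-type lectin genes 3 fell and none rose, and the family as a whole had a median of 0.02. Lectins of this class bind sugars, and many are secreted into the gut. The gene clec-247 (Y51A2A.1) read 6.81, 6.86 and 6.82 in controls and 5.15, 5.27 and 5.13 with GLA, which was 3.12-fold lower (SE 0.108 on the log2 scale, adjusted p = 2.95e-05). The genes clec-71 (Y46C8AL.4) and clec-174 (Y46C8AL.2), neighbours in the annotation's gene order, also fell. For clec-71 the arrays read 6.81, 6.85 and 7.24 in controls and 5.90, 6.08 and 5.80 with GLA, which was 2.06-fold lower (adjusted p = 0.0215). For clec-174 they read 6.49, 6.10 and 6.02 and then 4.84, 5.09 and 5.34, which was 2.17-fold lower (adjusted p = 0.019). The call of clec-71 ended without any 1 array (0.0555 to 0.115) and that of clec-174 without control 1, control 2, GLA 1 or GLA 2 (0.0623 to 0.0998).

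Lysozymes, which break bacterial walls, gave 1 rise and 1 fall in 16 genes (median -0.04). With lys-4 the rise was 1.46-fold (9.74 ± 0.0426 to 10.29 ± 0.0722, adjusted p = 0.0332), and lys-7 was 1.61-fold lower (6.75 ± 0.153 to 6.06 ± 0.065, adjusted p = 0.0215). The call of lys-4 ended without any 1 array (0.105 to 0.206) and that of lys-7 without any but control 1 (0.0755 to 0.127). In the list of 69 saposin-like, thaumatin-like and other gut defence genes, sysm-1 (T24B8.5), a gene much used as a readout of the PMK-1 immune pathway, fell alone. It was 1.96-fold lower (5.09 ± 0.216 to 4.12 ± 0.0482, adjusted p = 0.0065) and stayed called whichever array was left out. No epidermal antimicrobial peptide of 18 was called (median -0.07).

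Of the 63 called genes, 22 stood in none of the 56 lists, 13 of them higher and 9 lower. Among the rises, T25G12.13 read 5.03, 5.34 and 5.45 in controls and 6.84, 6.88 and 6.97 with GLA (3.08-fold, adjusted p = 0.000466). With Y87G2A.2 the values were 6.28, 6.23 and 6.45 against 7.72, 7.78 and 7.67 (2.65-fold, adjusted p = 0.00123). For B0272.4 they were 6.56, 6.88 and 6.65 against 7.98, 7.95 and 7.66 (2.25-fold, adjusted p = 0.00346). These 3 genes stayed called whichever array was left out, and their groups lay at least 0.7 apart. The gene cTel55X.1 read 7.58, 7.58 and 7.69 against 8.69, 8.84 and 8.47 (2.07-fold, adjusted p = 0.0117), and its call ended without control 1, control 2, GLA 1 or GLA 2 (0.0623 to 0.0739).

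Smaller rises outside the lists included C40H1.8 (1.92-fold, adjusted p = 0.0215), D2063.1 (1.87-fold, adjusted p = 0.0125), F49C12.7 (1.85-fold, adjusted p = 0.0306), Y53G8B.2 (1.71-fold, adjusted p = 0.0254), the chemoreceptor family gene srx-122 (1.63-fold, adjusted p = 0.03), F55F3.4 (1.62-fold, adjusted p = 0.0281) and the alpha/beta hydrolase family gene abhd-3.1 (1.48-fold, adjusted p = 0.0487). Rises in F25D1.5 (0.88, adjusted p = 0.00831) and C06C6.8 (0.86, adjusted p = 0.0414) are given without a fold, since their control means of 2.35 and 1.86 were under every array's lower quartile. All 9 calls ended with an array left out. Those of C40H1.8 (0.0808 to 0.131), srx-122 (0.106 to 0.165), abhd-3.1 (0.155 to 0.25) and C06C6.8 (0.0827 to 0.223) ended without any 1 array. Those of F49C12.7 (0.0993 to 0.166), Y53G8B.2 (0.0647 to 0.143) and F55F3.4 (0.0683 to 0.165) ended without control 1, control 3 or any 1 GLA array. The call of D2063.1 (0.0534 to 0.0755) ended without any 1 GLA array and that of F25D1.5 (0.0531 to 0.0633) without control 1 or GLA 2.

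Among the falls outside the lists, the claudin-like gene clc-19 (T24C4.4), of a family found in cell junctions, read 6.94, 6.43 and 5.97 in controls and 5.07, 4.84 and 4.97 with GLA (2.80-fold lower, adjusted p = 0.0191). Its controls spread over nearly 1 log2 unit and its GLA arrays over 0.23. The gene F22H10.2 went from 9.08, 9.06 and 8.87 to 7.96, 8.13 and 7.70 (2.11-fold lower, adjusted p = 0.0191). In B0024.4 the values were 5.42, 5.49 and 5.15 against 4.41, 4.52 and 4.12 (2.01-fold lower, adjusted p = 0.00831). None of these 3 kept its call throughout. That of clc-19 ended without control 1, control 2 or any 1 GLA array (0.0555 to 0.114), that of F22H10.2 without control 1, control 2, GLA 1 or GLA 3 (0.0917 to 0.0982), and that of B0024.4 without control 1 or control 2 (0.0505 to 0.0518). Smaller falls were ZK1025.3 (1.93-fold, adjusted p = 0.0254), the aspartyl protease family gene asp-12 (1.73-fold, adjusted p = 0.0366), K09C6.9 (1.72-fold, adjusted p = 0.00785), F10C2.7 (1.67-fold, adjusted p = 0.0274), C14C6.5 (1.63-fold, adjusted p = 0.0191) and Y75B8A.28 (1.52-fold, adjusted p = 0.0306). The call of K09C6.9 ended without GLA 2 alone (0.0556), that of ZK1025.3 without any array but GLA 3 (0.0647 to 0.149) and that of F10C2.7 without any but control 3 (0.079 to 0.147). Those of asp-12 (0.0802 to 0.207), C14C6.5 (0.0656 to 0.104) and Y75B8A.28 (0.0656 to 0.18) ended without any 1 array.

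Large groups of genes with general cell functions gave no call. None of 33 genes of the SKN-1 and oxidative stress response passed (median 0.07), with sod-3 (-0.55, adjusted p = 0.255) and the catalase ctl-1 (0.38, adjusted p = 0.402) nearest. There was none among 51 heat shock proteins and DNAJ chaperones (-0.01), 9 iron genes (-0.15), 21 genes of the glyoxylate and citric acid cycles (0.02), 66 of the respiratory chain (0.02), 33 proteasome subunits (-0.02) or 69 ribosomal proteins (0.05). Neuropeptides (102 genes, -0.01), insulin-like peptides (40 genes, 0.02) and genes of apoptosis and engulfment (11 genes, -0.11) gave none either. In a list of 19 genes downstream of daf-16, which overlaps other lists, fat-5 rose and lys-7 fell (median 0.03). The value after each group is the median log2 fold change of its measured members.

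Markers of stage and tissue showed control 3 apart from controls 1 and 2. The vitellogenins (5 genes measured), which adults make for yolk, averaged 0.55 above their 12-array mean on control 3, but stood at -0.541 and -0.325 on controls 1 and 2, with GLA arrays at 0.076 to 0.23. The 20 oocyte genes stood at -0.058, -0.011 and 0.207 on controls 1 to 3 and at -0.163, 0.002 and 0.076 on GLA 1 to 3. The 32 molting genes stood at 0.151, -0.07 and -0.311 on controls 1 to 3 and at 0.256, 0.139 and 0.077 on GLA 1 to 3. Oocyte and molting values thus followed the replicate number in each group, and the reason was not tested. No gene of these 3 lists was called, although vit-5 (1.24, SE 0.593, adjusted p = 0.943) and the molting gene fbn-1 (1.08, SE 0.396, adjusted p = 0.835) differed by more than 2-fold. Sperm genes averaged 6.42 to 6.54 on control arrays and 6.36 to 6.42 on GLA arrays (50 genes, median -0.09, none called). Intestine markers (15 genes) averaged 8.59 to 8.62 and 8.57 to 8.64, muscle markers (18 genes) 10.35 to 10.53 and 10.45 to 10.50, and neuron markers (17 genes) 6.93 to 6.97 and 6.92 to 6.96. No member of the vitellogenin, sperm, oocyte, molting, intestine, muscle or neuron lists had a 12-array mean below the lowest lower quartile. The part of stage differences in the calls was not tested. Without control 3 the count was 54 probe sets, 43 of them among the 67 called with it, and 42 of the 63 genes stayed called.

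**Figure D4:**
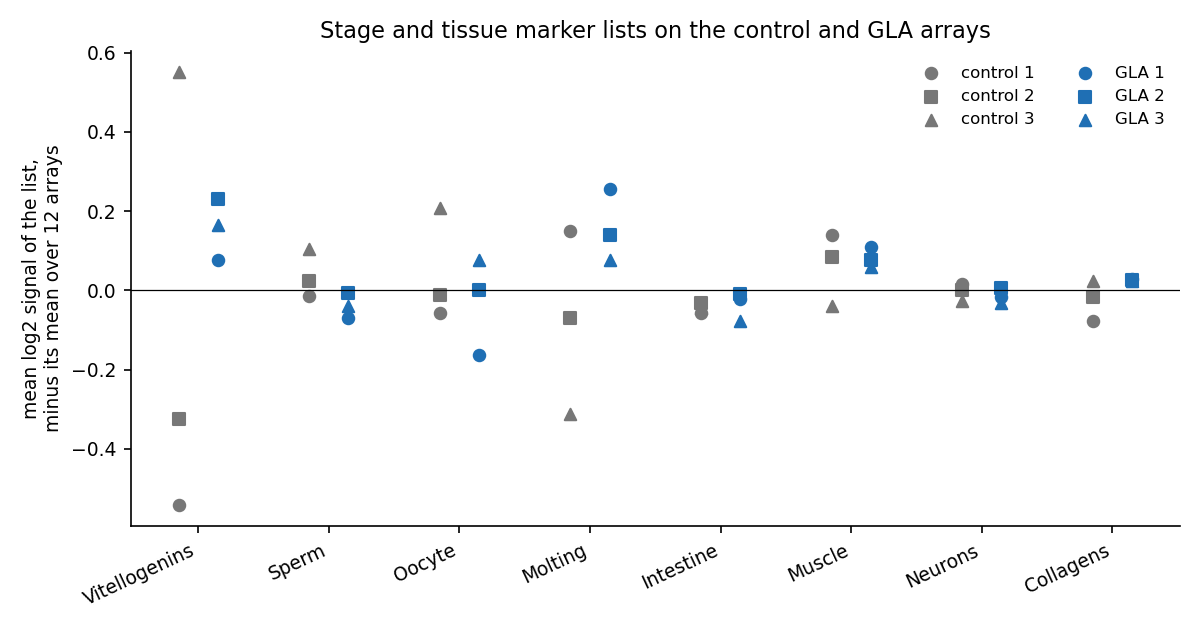
Mean log2 signal of 8 stage and tissue marker lists on each control (grey) and GLA (blue) array, less the list's mean over all 12 arrays. Control 3 (grey triangle) is highest for vitellogenins and oocyte genes and lowest for molting genes, while intestine, muscle and neuron markers differ little between the groups.

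GLA was also set directly against the acids before and after it in the pathway, at the same dose and nominal stage. These were 2 comparisons of means without the control arrays, which enter only the pooled estimate of the spread. The first asks where the added double bond of GLA goes with a different response from that to LNA. It called 16 genes, 0.0628% of all, with 10 higher (0.0392%) and 6 lower (0.0235%) with GLA, or 18 probe sets (0.0614%). The gene cyp-13A12 read 3.85, 3.58 and 4.07 with LNA, none above its highest control value, and was 16.3-fold higher with GLA (log2 difference 4.03, SE 0.144, adjusted p = 1.51e-07). For ugt-37 the LNA arrays read 5.01, 5.56 and 5.36, again near the controls, and GLA was 7.53-fold higher (adjusted p = 7.72e-06). Its relative ugt-35 read 3.07, 3.41 and 3.14 with LNA, and GLA was 2.11-fold higher (adjusted p = 0.00601). With far-3, where the LNA arrays read 6.90, 8.0 and 6.95, LNA lay between control and GLA, and GLA was 3.84-fold higher (adjusted p = 0.0157). Next came the efflux transporter pgp-1 (1.18, adjusted p = 0.0244) and nta-1 (1.03, adjusted p = 0.0301). Also higher were bcmo-2 (0.94, adjusted p = 0.0149), gst-44 (0.86, adjusted p = 0.0156), F25D1.5 (0.82, adjusted p = 0.0348) and cdr-4 (0.67, adjusted p = 0.0201).

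Lower with GLA than with LNA were mbug-1 (-1.43, adjusted p = 0.00556), clec-247 (-1.24, adjusted p = 0.00109), lys-7 (-0.82, adjusted p = 0.0201), C17H12.8 (-0.65, adjusted p = 0.0348), the lipase family gene lips-5 (-0.62, adjusted p = 0.0456) and C04G6.2 (-0.61, adjusted p = 0.0457). With LNA the mbug-1 arrays read 5.63, 5.50 and 5.41 and the clec-247 arrays 6.18, 6.51 and 6.58, all between the control and GLA values. The calls of cyp-13A12, ugt-37, clec-247 and mbug-1 held whichever GLA or LNA array was left out. Those of ugt-35 (without GLA 3 or LNA 3, 0.0564 to 0.0582) and of far-3 (without LNA 3 or any 1 GLA array, 0.0796 to 0.122) did not. Each of the other 10 calls ended when GLA 2, GLA 3 or LNA 3 was left out. Without LNA 2 and LNA 3, which leaves 1 LNA array assumed to vary like the other groups, cyp-13A12, ugt-37, far-3, ugt-35 (0.0325) and clec-247 (0.0307) stayed called and the other 11 of the 16 did not, mbug-1 among them (0.0897).

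Other genes that rose on GLA were not called against LNA. For irg-3 the difference from LNA was 0.67 (95% interval 0.32 to 1.01, adjusted p = 0.298), for acds-10 0.28 (0.05 to 0.52) and for acs-7 0.25 (0.02 to 0.48). These 3 intervals lay above 0. So did those of most other rises of at least 2-fold that were not called against LNA. The largest such differences were in bcmo-1 (1.41, 0.86 to 1.96) and cyp-13B1 (0.96, 0.63 to 1.29). Among these rises only dhrs-4 (0.19, -0.15 to 0.54) and cTel55X.1 (0.28, -0.03 to 0.60) had intervals that held 0. Intervals of some smaller rises also held 0, such as ech-8 (0.02, -0.33 to 0.37). The desaturase fat-5 read higher with LNA (6.31 ± 0.166) than with GLA (5.50 ± 0.121), a difference of -0.81 (interval -1.11 to -0.51) that was not called (adjusted p = 0.0853). Of the 63 genes called against control, 11 passed against LNA, each with GLA farther from the control mean. Since these 63 were chosen on the GLA arrays, such a lean towards GLA is partly built in.

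The second comparison asks where lengthening GLA to DGLA goes with a different response. It called 17 genes, 0.0667% of all, with 10 higher (0.0392%) and 7 lower (0.0275%) with GLA, or 22 probe sets (0.075%). For cyp-13A12 the DGLA arrays read 6.72, 6.55 and 6.32, between control and GLA, and GLA was 2.52-fold higher (adjusted p = 0.00425). For ugt-37 they read 6.43, 6.05 and 6.16, and GLA was 4.02-fold higher (adjusted p = 0.000318). For ugt-35 they read 3.42, 3.52 and 3.34, and GLA was 1.81-fold higher (adjusted p = 0.027). These 3 genes were thus higher with GLA than in any of the other 3 groups, with no overlap of arrays. Also higher with GLA than with DGLA were irg-5 (1.5, adjusted p = 0.0403) and clec-174 (1.09, adjusted p = 0.0415), both of which fell against control, and F09C8.1 (1.06, adjusted p = 0.0323) and C32H11.4 (1.05, adjusted p = 0.027). Further ones were F55G11.8 (0.96, adjusted p = 0.0323) and lys-2 (0.78, adjusted p = 0.0355), and the cysteine synthase-like gene cysl-2 also stood higher with GLA (0.65, adjusted p = 0.0403).

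**Figure D5:**
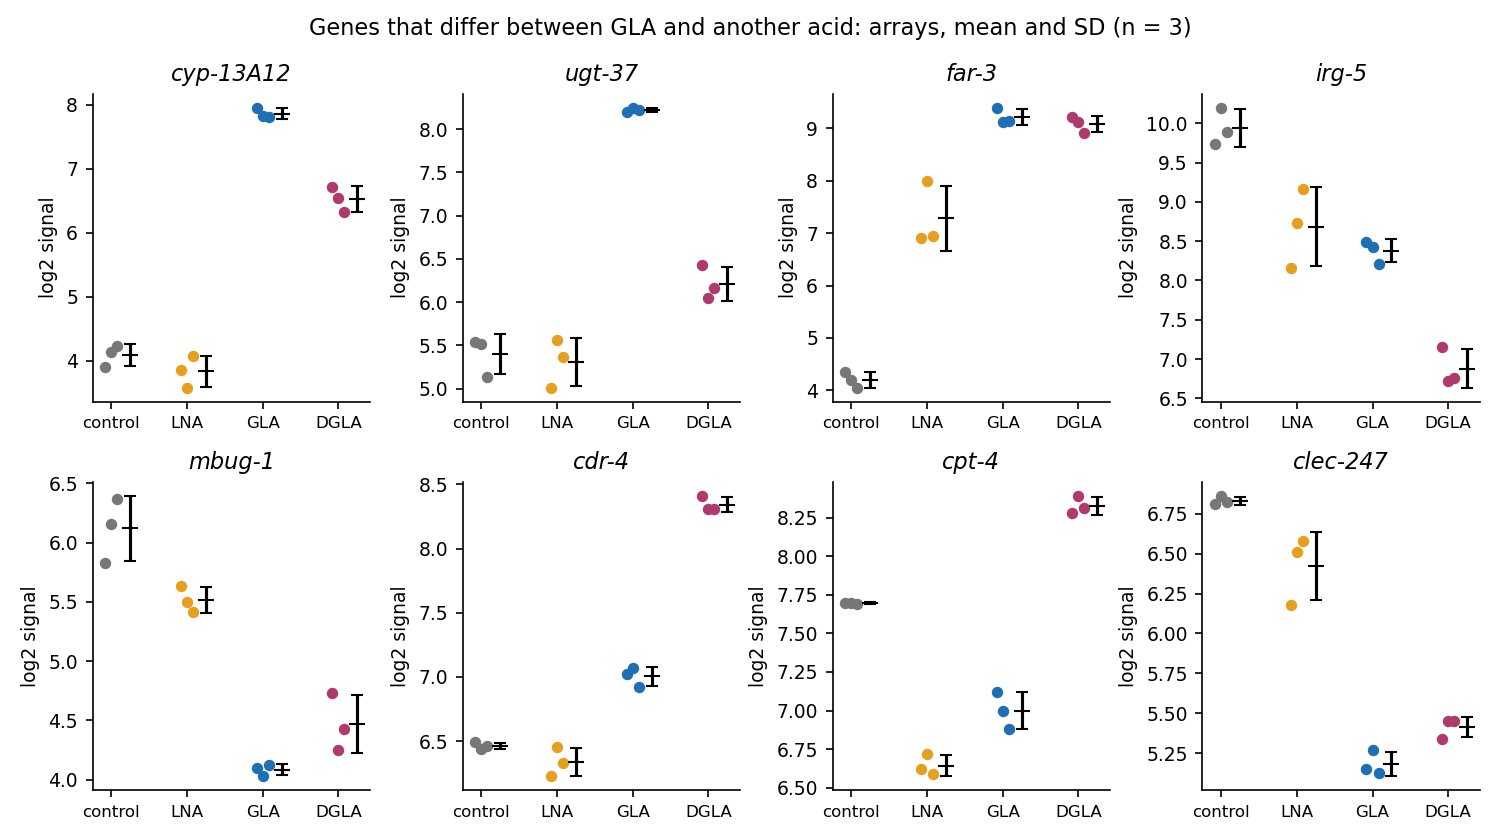
Log2 signal of 8 genes that differed between GLA and LNA or DGLA, in all 4 groups. Points are single arrays and bars the mean ± SD (n = 3), with a separate vertical scale for each gene that does not start at 0; cyp-13A12 and ugt-37 are highest with GLA, cdr-4 and cpt-4 with DGLA.

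Lower with GLA than with DGLA were nta-1 (-1.69, adjusted p = 0.000417), the steroid dehydrogenase family gene stdh-2 (-1.66, adjusted p = 0.027), cdr-4 (-1.34, adjusted p = 6.97e-05), cpt-4 (-1.33, adjusted p = 6.97e-05), T16G1.6 (-1.27, adjusted p = 0.000397), cyp-33C2 (-1.23, adjusted p = 0.0127) and F25D1.5 (-0.94, adjusted p = 0.0127). In cpt-4 the arrays read 7.12, 7.0 and 6.88 with GLA and 8.28, 8.39 and 8.31 with DGLA, on either side of the controls at 7.70, 7.70 and 7.69. In cdr-4 they read 7.02, 7.07 and 6.92 with GLA and 8.41, 8.31 and 8.31 with DGLA, both above the controls at 6.49, 6.44 and 6.46. The calls of ugt-37, cyp-13A12, T16G1.6, cpt-4, cdr-4 and nta-1 held whichever GLA or DGLA array was left out, and each of the other 11, ugt-35 among them, ended when GLA 1, GLA 3 or DGLA 3 was left out. Without LNA 2 and LNA 3 those of clec-174 (0.078) and stdh-2 (0.079) ended.

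For other large changes with GLA the difference from DGLA was not called. It was 0.14 for far-3 (95% interval -0.39 to 0.66), -0.05 for irg-3 (-0.40 to 0.30), 0.03 for T25G12.13 (-0.29 to 0.34) and -0.14 for acox-1.1 (-0.35 to 0.08). These intervals held 0, but those of several other genes that changed at least 2-fold did not. Examples above 0 were bcmo-2 (0.44, 0.20 to 0.69) and clec-71 (0.54, 0.19 to 0.89). Examples below 0 were hacd-1 (-0.55, -0.90 to -0.20) and B0272.4 (-0.37, -0.67 to -0.08). Of the 63 genes called against control, 8 passed against DGLA, 4 with GLA farther from the control mean and 4 nearer to it.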

How the data were processed

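RNA from the 12 samples was labelled with biotin and hybridised to Affymetrix arrays. The deposited log2 values were made by the authors with RMA (background correction, normalisation between arrays and summary of probes), per the submitters' processing notes, which also list the Transcriptome Analysis Console and the Affymetrix Expression Console. For these, versions, options and genome build were not given in the sources used here. Probe sets were named from the platform annotation (3125 without a symbol and 646 with several stayed in the fit unnamed), of which 25495 with 1 symbol matched RefSeq WBcel235. That table served for names and for which genes neighbour each other. A gene stands for its 1-symbol probe set with the highest 12-array mean.

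Group means were fitted with limma 3.58.1 in R 4.3.3 (lmFit, eBayes, two-sided, 11.6 total degrees of freedom) without a block, and the code was tested on simulated data. The number of arrays, 3 a group, limits the precision. No filter was applied. Named were every called gene, with array values from 2-fold up, 9 synthesis enzymes, up to 2 members of a list without calls, and for each pair of acids the 6 largest differences each way; other genes, including those at the ends of a list's range, uncalled relatives of called genes and further calls between acids, were chosen after their values were seen. The comparison and the 56 gene lists were chosen with earlier results of these data known. Replicate numbers are not said to pair samples, and same-numbered GLA and control arrays deviated from their group means with correlations of 0.139, 0.002 and 0.091. Arrays of unlike number gave -0.151 to 0.057. Alternatives were the block, the 6 arrays alone, other scalings, a filter on dim probe sets, other eBayes settings, other thresholds, and each array left out.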

Additional observations from a re-analysis of the deposited data

How the results depend on the processing

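GLA against control called 67 probe sets (43 higher, 24 lower), and between 54 and 90 under cyclic loess (77), median centring (65), without dim probe sets (82), with a trend and robust prior (90), without LNA 2 and LNA 3 (56) and without control 3 (54). On the 6 arrays alone it called 27 (22 higher, 5 lower). With 1 array left out the counts ran from 24 to 54, with 17 to 34 higher and 7 to 20 lower, and they fell by more than 1.5 times without control 1 (33), control 2 (35), GLA 1 (30), GLA 2 (24) or GLA 3 (32). At an adjusted p under 0.01, 29 of the 63 genes passed, 77 passed under 0.1, and the mean over a gene's probe sets gave 70. No called gene reversed under the other scalings, eBayes settings, the block, the filter or the arrays left out, and the synthesis enzymes not called stayed so. The filter kept 54 of the 63 genes, so the rest were not tested under it. On the 6 arrays alone fat-5 lost its call (adjusted p = 0.0772). GLA against LNA called 18 probe sets, 3 on its 6 arrays alone, 11 with median centring, 29 with a trend and robust prior, and 4 to 961 with 1 array left out, the highest without LNA 1, which leaves the 2 LNA arrays that lie apart; the lower counts were 11 without LNA 2, 4 without LNA 3, 6 without GLA 1, 5 without GLA 2 and 4 without GLA 3. GLA against DGLA called 22, 13 on its 6 arrays alone and 8 to 11 with any 1 array left out. With the replicate number as a block the counts were 55 (36 higher, 19 lower), 8 and 11 for the 3 comparisons, and 47 of the 63 genes stayed called. In deviations from group means, GLA 1 and GLA 3 correlated best with the control of their own number (0.139 and 0.091). GLA 2 correlated best with control 3 (0.057, against 0.002 with control 2). The causes of the changes in these counts were not tested, though fewer arrays also leave fewer degrees of freedom.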

Other observations

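The GLA and control arrays did not overlap in 3069 of the 25478 genes (12%), and most of these genes were not called. With 3 arrays a group, many genes separate in this way without any effect, so 3069 is not a count of genes that responded. In limma's moderated test 5.48% of genes had an unadjusted p under 0.05. The largest such differences upward were K05B2.4 (5.10, 5.40 and 4.85 in controls, 6.42, 6.43 and 6.14 with GLA, adjusted p = 0.0667), gst-33 (4.58, 4.45 and 5.02, then 5.66, 5.67 and 5.97, adjusted p = 0.0592) and F48C1.9 (2.17, 2.63 and 2.89, then 3.85, 3.52 and 3.35, adjusted p = 0.133). Downward they were Y92C3A.5 (5.17, 5.33 and 5.2, then 2.86, 4.64 and 3.75, adjusted p = 0.427), the tetraspanin family gene tsp-1 (4.79, 4.62 and 3.55, then 3.23, 3.00 and 3.02, adjusted p = 0.134) and Y47H10A.5 (8.88, 8.62 and 7.95, then 7.27, 7.56 and 7.21, adjusted p = 0.0654). In Y92C3A.5 the GLA arrays spread over nearly 2 log2 units, and in tsp-1 and Y47H10A.5 control 3 was the lowest control.

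At the threshold itself, C06C6.8 (adjusted p = 0.0414), nhr-257 (0.0423) and abhd-3.1 (0.0487) lay just inside, and C17H12.8 (0.0569), the claudin-like clc-1 (-0.62, adjusted p = 0.0575) and gst-33 (0.0592) just outside.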
